A study of Bos taurus with 39 samples.

Results

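The family of miR-15, miR-16 and miR-195 was followed as 6 mature miRNAs, namely bta-miR-15a, bta-miR-15b, bta-miR-16a, bta-miR-16b, bta-miR-195 and bta-miR-497. They were taken by name from the 1030 known miRNAs of the count table, and all 6 were present. The table holds 1995 miRNAs in all, since 965 miRNAs predicted by the study were counted beside the known ones. The libraries were made from pooled bovine oocytes and fall into 13 conditions with 3 libraries each, which gives 39 libraries.

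In the control group the oocytes matured in vitro inside their cumulus-oocyte complexes (COCs) and were stripped of cumulus cells before lysis, and the CBX group was handled in the same way but matured with carbenoxolone, which closes gap junctions. Oocytes of the cocult group were denuded at the start and then shared the medium with COCs without touching them. Those of the DO group were denuded and matured by themselves. The paper gives a pronase treatment at collection for denuded oocytes and does not say whether the cocult group was included. These 4 groups were sampled after 1, 6 and 22 h, and the control group has 3 more libraries, from 0 h, whose collection is not described in the sources used here. All oocytes came from ovaries of a slaughterhouse, a library pools many oocytes, and the replicate number is taken as the ovary pool, so that animals cannot be told apart within a library. The paper pooled repeats of the experiment in pairs before RNA extraction, so a replicate number may cover more than a single collection. It also states that oocytes with a visible polar body were kept, without saying at which times.

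A mature miRNA guides an Argonaute protein to partly complementary sites in mRNAs, and the bases near its 5′ end, the seed, decide most of the pairing. The members of this family share a seed, and cyclins, cyclin-dependent kinases and BCL2 are among their best known targets, for which reason the family is known as a brake on the cell cycle. In the cow annotation of RefSeq (assembly ARS-UCD2.0, used for names and neighbours only), MIR15A and MIR16A are nearest neighbours inside LOC100847818. MIR15B and MIR16B are nearest neighbours inside SMC4, a condensin subunit gene, while MIR195 and MIR497 both lie inside LOC107131510. Each of these pairs thus lies within one annotated host gene. The mature forms of miR-16a and miR-16b are nearly identical, and how reads that match both were divided is not given in the sources used here, so the split between them is uncertain while their sum is less so.

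Total miRNA counts ranged from 11985 to 175429 per library, with a median of 70069. A floor of 3 counts stood for 18.8 to 223.4 CPM (counts scaled to a library of 1000000, after TMM). Floors and the intervals of count shares cover counting error only. Intervals of log2 fold changes come from the edgeR fit and include the spread between libraries. The counts of each of the 39 pairs of same-condition libraries differed beyond sampling noise, so none was merged. Counts are relative within a library of pooled oocytes, so that fewer cells of a type and less RNA per cell cannot be told apart. The library control 6 h replicate 1 held 20180 counts and stood apart within the family: it had 2 counts of miR-15a and 0 of miR-15b and miR-497. Values without it are given beside the results that it moved most. Of the markers of other cells, the red cell list (miR-451, miR-144, miR-486) held 0 to 7 counts per library, with miR-451 and miR-144 at 17 and 7 counts over all libraries. The white cell list held 2 to 185 counts, with miR-142-3p at 0 throughout, and 155 counts of miR-223 in DO 6 h replicate 2 made up most of its highest value. The list linked to granulosa and cumulus cells, 5 of whose 6 miRNAs were counted, summed to 2704 to 11344 CPM, and the 3 control libraries at 22 h held the range from 8466 to 11344 CPM against at most 8438 CPM in any other condition. Most of that sum was miR-21-5p, at 7492 to 10458 CPM in control oocytes at 22 h, while miR-202, a granulosa-linked miRNA, was at 357 to 670 CPM there and at 655 to 1595 CPM in control oocytes at 1 h. No mRNA was measured, so the oocyte label could not be checked on mRNA markers.

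The family made up 7.39% to 10.1% of all miRNA counts in a library, with a median of 9.16% over the 39 libraries, and 17.2% to 23.4% of the counts of known miRNAs. Most of this came from miR-16b, which held 78.3% of all family counts, followed by miR-16a with 18.9%. The other members were small: miR-15a held 1.26%, miR-195 0.72%, miR-15b 0.55% and miR-497 0.28%. Among the known miRNAs, miR-16b ranked first or second in every library. The rank of miR-16a among known miRNAs ranged from 4 to 18, with a median of 5.

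miR-16b was counted more often than miR-16a in 39 of 39 libraries, by a median ratio of 4.12 and a range from 2.50 to 16.1. miR-16a exceeded miR-15a, its neighbour in the annotation, in 39 of 39 libraries with a median ratio of 15.7. The same neighbour ratio was far larger for the other pair, where miR-16b exceeded miR-15b by a median of 156.7 over the 38 libraries in which miR-15b was counted. miR-195 exceeded miR-497 in 39 of 39 libraries, by a median ratio of 2.92. Members inside one annotated host gene were therefore counted very unequally. The counts were not corrected for how well each sequence enters a library. The ratios with miR-16a or miR-16b, and the contrast between the 2 pairs that hold them, also depend on the uncertain split of reads between these members.

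**Figure D1:**
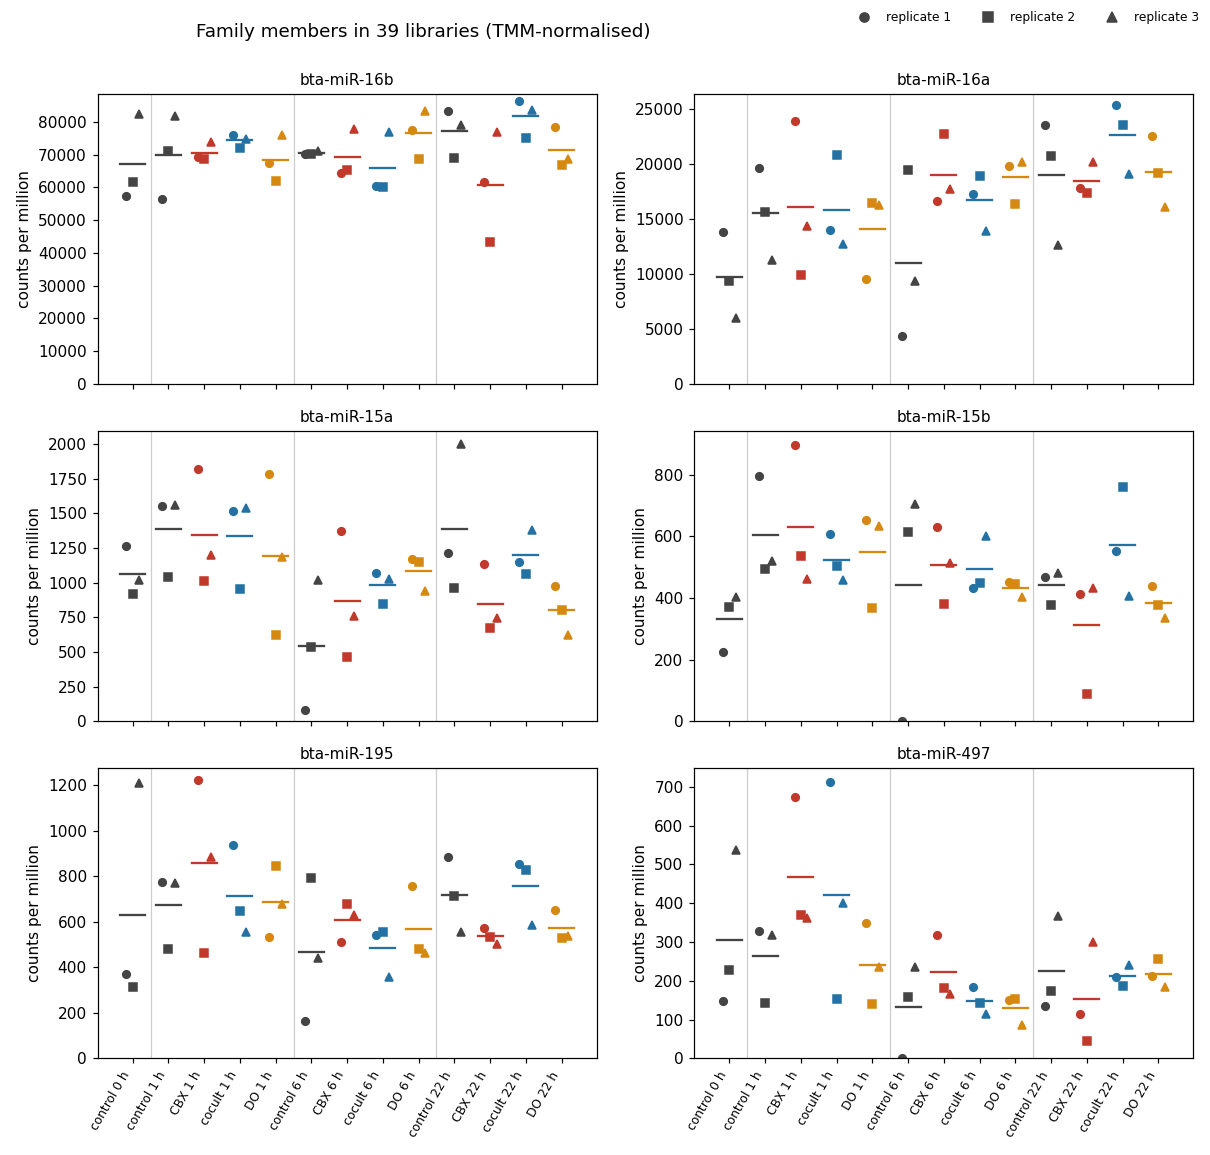
Level of each family member in CPM after TMM scaling (vertical axis, from 0, with its own scale per panel) in the 39 libraries, by condition; symbols mark the replicate number and lines the condition means. The spread between libraries of one condition differs by member and condition. In CBX at 22 h, for example, miR-16b runs from 43341 to 76999 CPM and miR-16a from 17319 to 20184 CPM. Control 6 h replicate 1 lies at the bottom for miR-16a, miR-15a, miR-15b, miR-195 and miR-497.

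miR-16b lay between 43341 and 86349 CPM over all libraries, with a median of 71181 CPM. Its condition means ran from 60697 ± 16854 CPM (SD, n = 3) in CBX at 22 h to 81649 ± 6002 CPM (SD, n = 3) in cocult at 22 h, a ratio of 1.35, and the libraries of these conditions overlapped. The mean of CBX at 22 h was 69375 CPM without replicate 2, and the lowest mean was then that of cocult at 6 h, 65768 CPM. The 3 values of CBX at 22 h were 61751, 43341 and 76999 CPM, and the second of these came from the library with 18796 total counts. In control oocytes at 22 h the values were 83346, 69054 and 79048 CPM, and in DO oocytes at 22 h they were 78265, 66941 and 68538 CPM. Of the 12 gaps between neighbours in the order of condition means, 0 exceeded the larger SD of the pair.

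The standard deviation of log2 CPM over the 36 libraries at 1, 6 and 22 h was 0.19 for miR-16b. That was the lowest among the 145 known miRNAs that passed the filter on low counts in the fit over these libraries, whose median was 0.60, and it ranked 2 among all 600 miRNAs that passed. Among the 20 most abundant known miRNAs the median was 0.30, and miR-16b was again the lowest. The value depends on the level of a miRNA and on the TMM scaling, so it is given as a description. When control 6 h replicate 1 was left out, the standard deviation of miR-16b stayed at 0.19 but its rank among the known miRNAs became 3. The other members were more spread, with 0.47 for miR-195, 0.50 for miR-16a, 0.73 for miR-15a, 0.86 for miR-15b and 0.87 for miR-497. Without that library these became 0.36, 0.38, 0.49, 0.49 and 0.69.

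**Figure D2:**
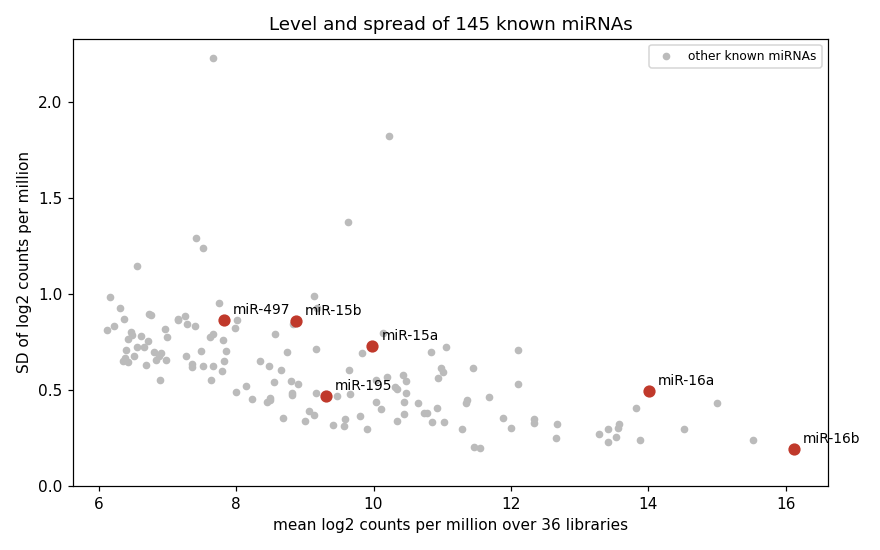
Standard deviation of log2 CPM (vertical axis) against mean log2 CPM (horizontal axis) over the 36 libraries at 1, 6 and 22 h for the 145 known miRNAs that passed the filter; the family is shown in red. miR-16b lies at the far right with the lowest spread of 0.19, while miR-15b and miR-497 have 0.86 and 0.87.

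miR-16a ranged from 4358 to 25314 CPM. At 1 h its values were 19628, 15630 and 11249 CPM in control, 23896, 9912 and 14400 CPM in CBX, 13965, 20851 and 12685 CPM in cocult and 9548, 16456 and 16259 CPM in DO oocytes (replicates 1 to 3 in each). All groups overlapped at this time. At 6 h the control values were 4358, 19403 and 9351 CPM, those of CBX 16651, 22701 and 17677 CPM, those of cocult 17265, 18904 and 13929 CPM, and those of DO 19851, 16341 and 20200 CPM. The lowest value of the series for miR-16a was thus that of the library that stood apart. At 22 h the control values were 23568, 20728 and 12662 CPM, those of CBX 17843, 17319 and 20184 CPM, those of cocult 25314, 23577 and 19075 CPM, and those of DO 22495, 19170 and 16044 CPM. The 0 h libraries held 13851, 9327 and 6005 CPM, which gave the lowest condition mean, 9728 ± 3938 CPM (SD, n = 3). The highest mean was that of cocult at 22 h, 22655 ± 3220 CPM (SD, n = 3). These end conditions, picked by their means, did not overlap. How often that holds over all miRNAs was not computed, so it is not read as a result about miR-16a. Only 1 of the 12 gaps between neighbouring condition means exceeded the larger SD.

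miR-15a ranged from 82.2 to 1999 CPM. Its highest condition mean was 1391 ± 542 CPM (SD, n = 3) in control oocytes at 22 h and its lowest 546 ± 469 CPM in control oocytes at 6 h, where the 3 libraries held 82.2, 536 and 1020 CPM. Without the library that stood apart, the mean of control oocytes at 6 h was 778 CPM and still the lowest. The control libraries at 22 h held 1215, 959 and 1999 CPM of miR-15a (replicates 1 to 3). They were also those with the highest sum of the granulosa-linked list, mostly miR-21-5p, whose part in the miR-15a level was not tested. Control oocytes at 1 h had nearly the same mean of miR-15a, 1386 CPM, with 4091 to 7228 CPM of that list. miR-15b, with 0 to 897 CPM, had its highest mean in CBX at 1 h, 632 ± 232 CPM, and its lowest in CBX at 22 h, 311 ± 192 CPM. Without control 6 h replicate 1, control oocytes at 6 h had a higher mean still, 661 CPM (n = 2), and without CBX 22 h replicate 2 the mean of that condition was 422 CPM. For miR-195 the range was 164 to 1221 CPM, and the means ran from 856 ± 381 CPM in CBX at 1 h to 466 ± 316 CPM in control oocytes at 6 h, which became 617 CPM without the library that stood apart. For each of these 3 members, 0 of the 12 gaps between neighbouring condition means exceeded the larger SD. The end conditions, again picked by their means, overlapped for miR-15a and miR-195 but not for miR-15b. Among the relatives described below, they overlapped for miR-103 but not for miR-424-5p, miR-503-5p and miR-107. The share of all miRNAs whose end conditions did not overlap was not computed, so no difference is read from these ends.

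miR-497, the least abundant member, was under 10 counts in 10 of 39 libraries. At 1 h it held 330, 144 and 319 CPM in control, 675, 369 and 363 CPM in CBX, 712, 154 and 399 CPM in cocult, and 349, 141 and 235 CPM in DO oocytes. At 6 h the values were 0, 159 and 235 CPM in control, 319, 183 and 165 CPM in CBX, 185, 144 and 114 CPM in cocult and 151, 154 and 86.6 CPM in DO. The 0 stands for 0 of 20180 counts, which allows up to 123.4 CPM on the TMM scale. At 22 h they were 136, 174 and 366 CPM in control, 115, 44.6 and 299 CPM in CBX, 209, 186 and 241 CPM in cocult, and 212, 257 and 185 CPM in DO. Over the 12 libraries of a time, the median was 339 CPM at 1 h, 156 CPM at 6 h and 198 CPM at 22 h. Its highest condition mean, 469 ± 178 CPM in CBX at 1 h, was 3.59 times its lowest, 130 ± 37.97 CPM in DO at 6 h. These conditions, also picked by their means, did not overlap, and the share of all miRNAs for which this holds was not computed.

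The first question of the design was whether the treatment of the COC changed the miRNA content of the oocyte at a given time. In the 18 comparisons between groups at one time, each a separate edgeR quasi-likelihood fit on 6 libraries, 0 of 106 tests of a family member passed the threshold, an adjusted p under 0.05 together with a log2 fold change of 1 or more in size. The smallest adjusted p was 0.35. At an unadjusted p under 0.05 there were 5 tests, or 4.72%, beside 5.24% of the 7883 tests over all miRNAs. DESeq2 called 0 family members, with 0 at an unadjusted p under 0.05. Few miRNAs of any kind passed: 1.46% of those tested in DO against CBX at 1 h, 2.35% in DO against CBX and 0.473% in DO against cocult at 6 h, and 0.216% in cocult against control and 0.232% in DO against CBX at 22 h, and 0% in the other 13 comparisons.

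Over the 18 comparisons the log2 fold changes of members ran from -0.91 to 0.99, with a median absolute value of 0.20 beside 0.22 over all miRNAs tested. For miR-16b the range was -0.33 to 0.32 and for miR-195 it was -0.35 to 0.39. The lower end for miR-16b, in cocult against control at 6 h, was -0.025 without control 6 h replicate 1. The upper end for miR-195, in CBX against control at 6 h, was 0.18 without it. For miR-16a it was -0.20 to 0.83, the upper end coming from CBX against control at 6 h (SE 0.31, higher in 3 of 3 pairs, adjusted p = 0.94, edgeR). This value rests in part on the library that stood apart, without which it was 0.62 (SE 0.24, adjusted p = 0.66). The same holds for miR-15a, whose highest value of 0.99, in DO against control at 6 h, became 0.37 without that library. miR-497 accounted for 3 of the 5 tests at an unadjusted p under 0.05. It was higher in CBX than in control at 1 h in 3 of 3 same-numbered pairs, with a log2 fold change of 0.84 (SE 0.32, adjusted p = 1.00, edgeR). In DO against CBX it was lower in 3 of 3 pairs both at 1 h, with a log2 fold change of -0.91 (SE 0.37, adjusted p = 0.35), and at 6 h, with -0.89 (SE 0.42, adjusted p = 0.48). The values of CBX at 1 h thus enter 2 of these 3 tests. The miR-16a difference in CBX against control at 6 h was another of the 5. The last was that of miR-15a in DO against cocult at 22 h, with a log2 fold change of -0.54 (SE 0.24, adjusted p = 0.66, edgeR) and lower values in 3 of 3 pairs. In cocult and DO against control at 6 h, miR-497 did not pass the filter on low counts, so that 2 of the 108 possible tests were not made.

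Averaged over the 3 times, with 9 libraries a side in one fit over the 36 libraries, 0 of the 6 members passed in any of the 6 comparisons of 2 groups by edgeR or DESeq2, and 0 reached an unadjusted p under 0.05 by either. Over all 600 miRNAs, edgeR called 0.5% in cocult against CBX, 0.333% in DO against CBX and 0% in the other 4, while DESeq2 called 3 miRNAs in cocult against CBX, 2 in DO against CBX, 3 in cocult against control and 1 in DO against control. The intervals were narrowest for miR-16b. Its log2 fold change was -0.15 in CBX against control (95% interval -0.31 to 0.01), -0.02 in cocult against control (-0.19 to 0.14) and -0.07 in DO against control (-0.23 to 0.09). The intervals were wider for miR-16a, from -0.07 to 0.67 around 0.30 in CBX against control, and widest for miR-497, from -0.34 to 0.92 around 0.29 in the same comparison. For miR-15a the interval in this comparison was -0.55 to 0.35, for miR-15b -0.62 to 0.41 and for miR-195 -0.33 to 0.47. For these averages over the 3 times, a log2 fold change of 1 with CBX lay outside all 6 intervals. That does not cover the fits at single times. Without control 6 h replicate 1 the estimate with CBX was -0.083 for miR-16b, 0.20 for miR-16a, 0.18 for miR-497, -0.23 for miR-15a, -0.23 for miR-15b and -0.011 for miR-195, so the sign for miR-195 changed. The signs for miR-16b changed as well in cocult against control (0.037) and in DO against control (0.011).

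**Figure D3:**
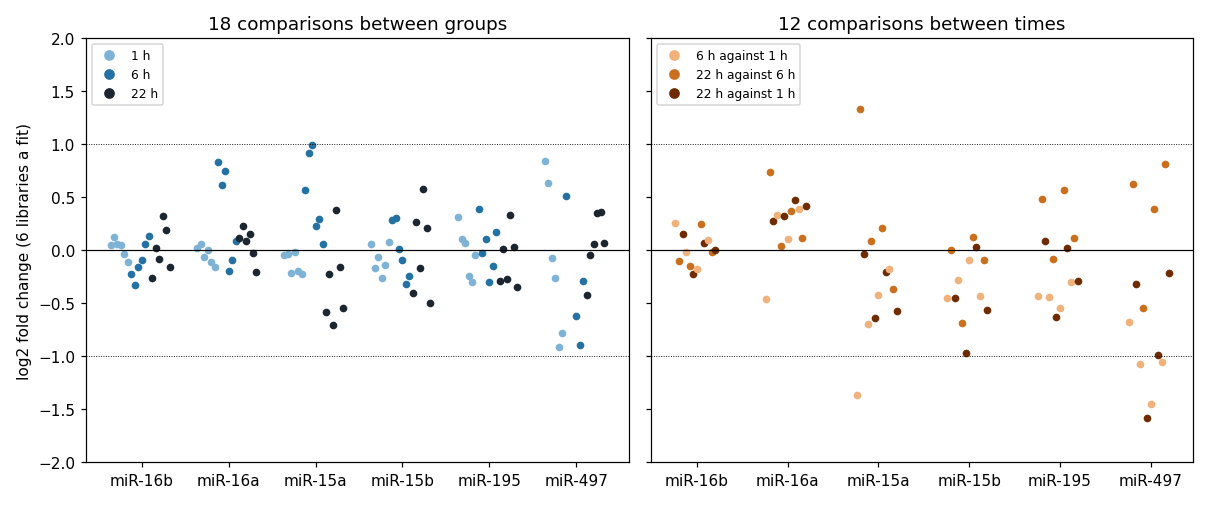
Log2 fold change of each member (vertical axis) in the 18 comparisons between groups (left, coloured by time) and the 12 comparisons between times within a group (right, coloured by the times compared), each point from a fit on 6 libraries; dotted lines mark the threshold of 1. All points for miR-16b lie between -0.33 and 0.32. Some points of miR-15a and miR-497 lie beyond 1 or -1, but 0 of the points had an adjusted p under 0.05 as well.

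The second question was whether the family changed as the oocytes matured. Within single groups, 0 of 72 member tests passed in the 12 comparisons of 2 times, the smallest adjusted p being 0.39 (edgeR), and DESeq2 also called 0. At an unadjusted p under 0.05 edgeR gave 9 tests, or 12.5%, beside 7.53% of the 5269 tests over all miRNAs, and DESeq2 gave 5. The share of all miRNAs called was 0.44% in control and 1.81% in DO oocytes at 22 h against 1 h, 0.227% in CBX at 22 h against 6 h, and 0% in the other 9.

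Of those 9 tests, 5 concerned miR-497, in every one of which it was lower at the later time. At 6 h against 1 h its log2 fold change was -1.07 in CBX (SE 0.36, lower in 3 of 3 pairs), -1.45 in cocult (SE 0.43, lower in 3 of 3 pairs) and -1.05 in DO (SE 0.40, lower in 2 of 3 pairs), with adjusted p of 0.63, 0.40 and 0.46 by edgeR. At 22 h against 1 h it was -1.58 in CBX (SE 0.59, adjusted p = 0.39) and -0.99 in cocult (SE 0.41, adjusted p = 0.76). The 1 h libraries of CBX and of cocult each enter 2 of these tests. The other 4 tests gave higher values at the later time in 3 of 3 pairs: miR-15a in control oocytes at 22 h against 6 h (1.33, which became 0.89 without the library that stood apart), and in cocult miR-16a at 22 h against 6 h (0.37) and against 1 h (0.47) and miR-195 at 22 h against 6 h (0.57). In control oocytes miR-497 changed by -0.31 from 1 h to 22 h (SE 0.38, adjusted p = 0.83). The comparison in CBX at 22 h against 1 h passed when replicate 3 was left out, with a log2 fold change of -2.70 (adjusted p = 0.025, edgeR). It also passed with all replicates when the deduplicated reads of the study served as library size and TMM was left out (-2.23, adjusted p = 0.021, edgeR). The call thus depended on replicate 3 and on the scaling, in which the library size and the use of TMM changed together. Under the main scaling, the value without CBX 22 h replicate 2, which held 1 count of miR-497, was -1.36 (adjusted p = 0.53). The CBX libraries of replicates 1 and 2 held 675 and 369 CPM at 1 h and 115 and 44.6 CPM at 22 h.

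Over the 4 groups together, with 12 libraries a side, 0 of 6 members passed the threshold by edgeR in any of the 3 time comparisons. Among all 600 miRNAs, 1.5% were called at 22 h against 1 h, 0.167% at 6 h against 1 h and 0% at 22 h against 6 h. Without the fold-change threshold these shares were 9.17%, 0.333% and 0.167%, and the family count remained 0 in each. At an unadjusted p under 0.05, 3 members were found at 22 h against 1 h, 3 at 6 h against 1 h and 0 at 22 h against 6 h, and DESeq2 gave the same numbers. Over all 600 miRNAs the share at that unadjusted threshold by edgeR was 26.8% at 22 h against 1 h, 13.5% at 6 h against 1 h and 9.33% at 22 h against 6 h. The median log2 fold change of the 6 members was -0.28 at 22 h against 1 h, beside 0.00 over all 600 miRNAs and -0.07 over the 145 known ones, and -0.35 at 6 h against 1 h, beside -0.01 and -0.13. The only member called by DESeq2 was miR-497 at 6 h against 1 h, with a log2 fold change of -1.03 (adjusted p = 0.018), where DESeq2 called 2 miRNAs, or 0.414% of the 483 to which it gave an adjusted p.

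miR-16b differed by 0.01 on the log2 scale between 22 h and 1 h (SE 0.07, 95% interval -0.13 to 0.15, adjusted p = 0.93, edgeR) and was higher at 22 h in 7 of 12 same-numbered pairs. At 6 h against 1 h the difference was 0.02 (SE 0.07, interval -0.12 to 0.16), and -0.023 without control 6 h replicate 1. miR-16a was 0.34 higher at 22 h than at 1 h on the log2 scale (SE 0.16, interval 0.02 to 0.66, adjusted p = 0.17), in 10 of 12 pairs. Its lowest, median and highest values were 9548, 15015 and 23896 CPM at 1 h, 4358, 17471 and 22701 CPM at 6 h and 12662, 19677 and 25314 CPM at 22 h, so that the times overlapped widely. Adding miR-16a and miR-16b together removes the uncertain split if each read was counted once. The log2 fold change of the sum at 22 h against 1 h was 0.08 (SE 0.06, adjusted p = 0.46, edgeR).

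The estimates for the 4 less abundant members were below 0. miR-15b was -0.45 on the log2 scale at 22 h against 1 h (SE 0.21, adjusted p = 0.18, edgeR), higher in 2 of 12 pairs. miR-15a gave -0.34 (SE 0.19, adjusted p = 0.24), higher in 3 of 12 pairs, and miR-195 gave -0.22 (SE 0.16, adjusted p = 0.43), higher in 6 of 12 pairs. miR-497 gave -0.71 (SE 0.26, adjusted p = 0.073), higher in 4 of 12 pairs. The differences of miR-15a, miR-195 and miR-497 were larger at 6 h against 1 h: -0.59 for miR-15a (SE 0.19, adjusted p = 0.14, higher in 1 of 12 pairs), -0.44 for miR-195 (SE 0.17, adjusted p = 0.21, higher in 3 of 12 pairs) and -1.02 for miR-497 (SE 0.26, adjusted p = 0.073, higher in 2 of 12 pairs). That of miR-497 was the lowest log2 fold change among the 145 known miRNAs tested in this comparison, but not among all 600 miRNAs, where the lowest was -1.38. The standard deviation of miR-497 was also among the larger ones, at rank 128 of these 145 from the lowest. The control 6 h library that stood apart enters these values. Without it, the differences at 6 h against 1 h were -0.49 for miR-15a (adjusted p = 0.097), -0.36 for miR-195 (adjusted p = 0.30) and -0.92 for miR-497 (adjusted p = 0.057). At 22 h against 1 h, the adjusted p without that library was 0.046 for miR-15b and 0.043 for miR-497, at log2 fold changes of -0.45 and -0.71, which are smaller than the fold-change threshold.

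**Figure D4:**
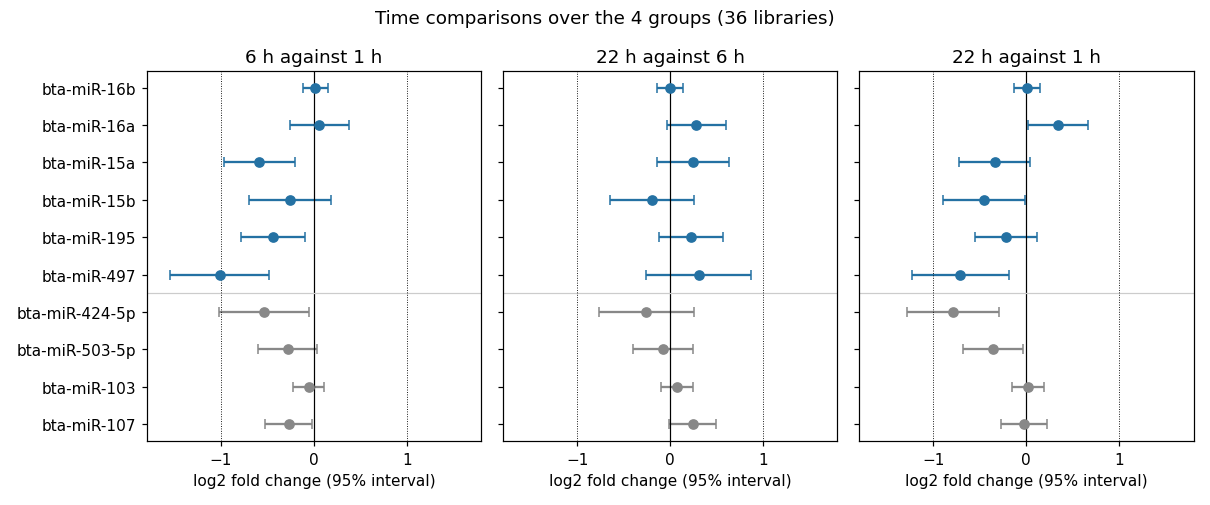
Log2 fold change with its 95% interval (horizontal axis) between times over the 4 groups in the fit on 36 libraries, for the 6 members (blue) and the 4 tested relatives (grey); dotted lines mark 1 and -1. miR-16b and miR-103 have narrow intervals around 0, and miR-497 at 6 h against 1 h, -1.02, lies farthest from 0.

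Whether the change with time differed between the groups was tested by the interaction of group and time. By edgeR, 0 of the 6 members passed, with 0 at an unadjusted p under 0.05 and an adjusted p of 0.98 for each. Of all 600 miRNAs, 0% passed. The replicate number, a proxy for the ovary pool, was also tested after the values had been seen: 28.7% of the 600 miRNAs differed between replicate numbers at an adjusted p under 0.05, among them 1 member, miR-16b (adjusted p = 0.035). Its median was 69720 CPM in replicate 1, 68607 CPM in replicate 2 and 76929 CPM in replicate 3.

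The share of miR-16a in the counts of miR-16a and miR-16b was described library by library, without a test. It ran from 5.84% (95% Clopper-Pearson interval 4.81% to 7.02%) in control 6 h replicate 1 to 28.6% (26.2% to 31.0%) in CBX 22 h replicate 2, so the range was far wider than the counting error of its ends. Both of these libraries were among the 3 with the fewest counts. The median share was 17.0% at 1 h, 20.0% at 6 h and 22.3% at 22 h. It was higher at 22 h than at 1 h in 10 of 12 pairs of the same group and replicate number, by a median of 2.88 percentage points and a range from -3.79 to 15.9. From 6 h to 22 h it was higher in 11 of 12 pairs. In the 0 h libraries it was 19.4%, 13.2% and 6.79%. Replicate 3 had the lowest share in 8 of the 12 conditions after 0 h, and the median share over its 12 libraries was 17.0% beside 22.2% in replicate 1 and 22.3% in replicate 2.

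**Figure D5:**
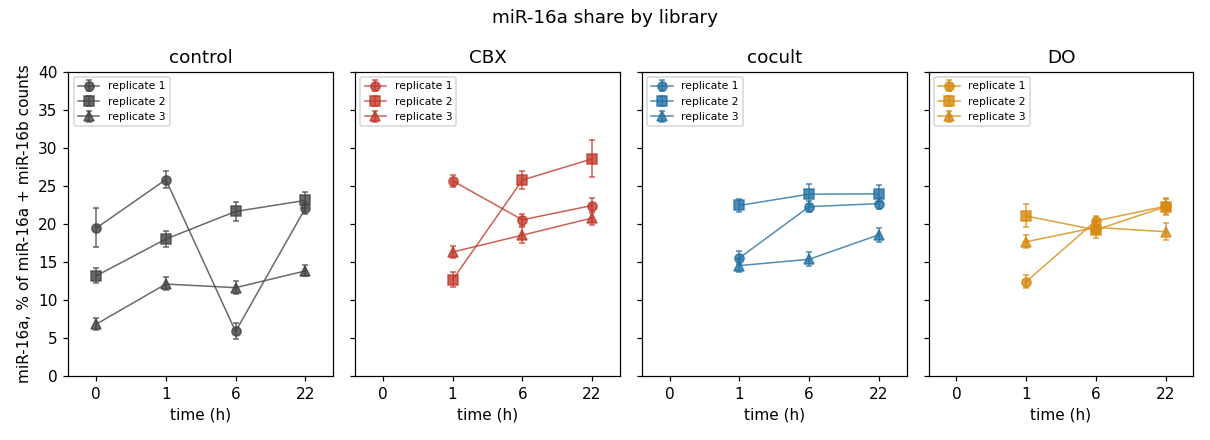
Share of miR-16a in the summed counts of miR-16a and miR-16b (vertical axis, percent) by time (horizontal axis, evenly spaced) in each group; lines join the libraries of one replicate number and bars are 95% Clopper-Pearson intervals for counting error only. The median share is 17.0% at 1 h and 22.3% at 22 h, and control 6 h replicate 1 is the lowest at 5.84%.

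The summed family does not depend on how reads were split between miR-16a and miR-16b if each read was counted once, which was not checked. Of all miRNA counts it had a median of 9.23% at 1 h, 9.04% at 6 h and 9.56% at 22 h, and was higher at 22 h than at 1 h in 7 of 12 pairs. By condition the mean was lowest in CBX at 22 h, 8.21% ± 1.12 (SD, n = 3), and highest in cocult at 22 h, 9.87% ± 0.19 (SD, n = 3), and 1 of the 12 gaps between neighbouring conditions exceeded the larger SD.

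The 0 h libraries exist for the control group alone, and their total counts were 11985, 68389 and 49916. Against 0 h, 0 of 6 members passed by edgeR at 1 h, with 0 at an unadjusted p under 0.05, and 0 of 6 passed at 22 h, with 1. Over all miRNAs, 16 of 409 at 1 h and 12 of 432 at 22 h had an unadjusted p under 0.05 by edgeR. DESeq2 called 0 members in both, with 0 and 1 at an unadjusted p under 0.05, and 0% of all miRNAs were called by edgeR. The member concerned was miR-16a, which was 0.89 higher at 22 h on the log2 scale (SE 0.25, interval 0.30 to 1.48, adjusted p = 0.76) in 3 of 3 pairs. Without control 0 h replicate 1, the smallest library, it was 1.07 (SE 0.35, adjusted p = 0.49). miR-16b gave 0.10 (SE 0.20), and miR-497 gave -0.48 (SE 0.38), lower in 3 of 3 pairs.

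Relatives of the family were followed from a list of 6: miR-424 and miR-503, which are neighbours in the annotation as MIR424 and MIR503 and are usually counted to the wider miR-16 family, each with both arms, and miR-103 and miR-107, whose seed overlaps that of the family at a shifted position. The 3p arms of miR-424 and miR-503 stayed at or under 47.9 CPM and were not tested in the fit over 36 libraries. Of the 4 relatives tested there, 0 passed the full threshold at 22 h against 1 h, but miR-424-5p had an adjusted p of 0.039 (edgeR), with a log2 fold change of -0.79 (SE 0.24) and a higher value at 22 h in 1 of 12 pairs. Its lowest, median and highest values were 254, 619 and 1041 CPM at 1 h and 134, 366 and 795 CPM at 22 h. DESeq2 gave -0.78 with an adjusted p of 0.022. It was lower in 3 of 3 pairs in control, CBX and cocult and in 2 of 3 pairs in DO oocytes, with log2 fold changes of -0.65, -1.14, -0.81 and -0.71 in these groups. miR-503-5p, the other 5p arm of the pair, gave -0.36 over the groups (SE 0.16, adjusted p = 0.15). miR-103, at 4017 to 10456 CPM the most abundant relative, gave 0.02 (SE 0.08, interval -0.15 to 0.19), and miR-107 gave -0.03 (SE 0.12).

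The members were also compared by how they varied over the 36 libraries. Pearson correlations of log2 CPM, which share the scaling of each library and are given as descriptions, were 0.80 for miR-15a with miR-15b, 0.77 for miR-15a with miR-497 and 0.86 for miR-15a with miR-424-5p. Without the library that stood apart they were 0.48, 0.59 and 0.81 over 35 libraries. For miR-16a with miR-16b the correlation was 0.04 with and without that library. The annotated neighbours miR-15a and miR-16a gave 0.35, which became -0.31 without that library. For miR-15b with miR-16b the value was 0.27 and became 0.46, and for miR-195 with miR-497 it was 0.61 and became 0.35. The sign for miR-15a with miR-16a thus depended on 1 library.

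Likeness was also measured over the condition means of log2 CPM in the 12 conditions after 0 h, against the 139 other known miRNAs that passed the filter. Most like miR-16a was miR-105a (Pearson 0.96), followed by miR-26b (0.89), miR-152 (0.84), miR-7 (0.84) and miR-342 (0.78). For miR-16b the order was miR-2285p (0.86), miR-30a-5p (0.85), miR-192 (0.83), miR-27b (0.82) and miR-146b (0.82). For miR-15a it was miR-19b (0.92), miR-424-5p (0.89), miR-138 (0.87), miR-26a (0.86) and miR-141 (0.83). The 12 means share scaling, and control 6 h enters them with the library that stood apart, so these are descriptions of the same libraries.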

How the data were processed

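Small RNA libraries of oocytes (QIAseq miRNA Library Kit) were adapter-trimmed, collapsed with UMI-tools on their molecular identifiers, aligned to ARS-UCD1.2 and counted by the authors on known (miRBase) and miRPro-predicted miRNAs. The deposited values are raw counts, without normalization. The submitters' processing notes name UMI-tools 1.1.2 and FastQC 0.11.9. Here both tables were joined. Comparisons used edgeR 4.0.16 (R 4.3.3): filterByExpr (minimum count 10, minimum total 15), library sizes recomputed, TMM, quasi-likelihood F-test with the replicate number as block, and Benjamini-Hochberg adjustment over all miRNAs tested. The log2 fold change is of the first-named over the second; its standard error is its size over the square root of F. Plotted and printed CPM are TMM-scaled over all 39 libraries; log2 CPM used a prior count of 2. DESeq2 1.42.0 was an alternative. Scripts were tested on simulated data.

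The study's methods enter the ovary pool as batch, and the replicate number of the labels was taken as that pool. Deviations of same-numbered libraries correlated at -0.01 to 0.47 (mean per comparison, median 0.22), and every pair exceeded 0.1 in 12 of 32 comparisons. The labels do not say that replicates are separate animals, so p-values measure the spread between these samples. The members, the lists of relatives and markers and the tests were chosen with earlier results of these data known. The named miRNAs are the 6 members, the 6 relatives and, for miR-16a, miR-16b and miR-15a, the 5 known miRNAs with the most similar condition means. Seed sharing could not be checked on sequences, which are not used here. Alternatives were other scaling, filters, tools and fits, and leaving out replicates or libraries. The replicate-number test and the values without CBX 22 h replicate 2 or control 0 h replicate 1 were chosen after seeing the data.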

Additional observations from a re-analysis of the deposited data

How the results depend on the processing

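The count of family members called was 0 in each of the 18 comparisons between groups, the comparisons against 0 h, the 3 joint time comparisons, the 6 joint group comparisons and the interaction, under every alternative that was run for them, except that DESeq2 called miR-497 at 6 h against 1 h (-1.03). With no replicate block, the counts were likewise 0 between groups, between times and in the joint fits. The 12 comparisons between times were the exception, with a count of 0 with the full data under the main settings. The count was 1 with the deduplicated reads of the study as library size and no TMM, and 0 to 1 when each replicate was left out. The member was miR-497 in CBX at 22 h against 1 h in both, with a log2 fold change of -2.23 (adjusted p = 0.021) in the first. That library size without TMM moved the median of all miRNAs by -0.19 at 22 h against 1 h, so changes there are relative to it. Under it the log2 fold change of miR-16b at 22 h against 1 h was -0.18, and at 6 h against 1 h it was -0.066 for miR-16b and -0.029 for miR-16a. Without control 6 h replicate 1, that of miR-16b at 6 h against 1 h was -0.023. Leaving out each replicate gave -0.072 to 0.092 for miR-16b at 22 h against 1 h, and at 6 h against 1 h -0.015 to 0.059 for miR-16b, -0.080 to 0.23 for miR-16a and -0.45 to 0.025 for miR-15b. The sign of these small values changed with the setting, and the cause was not tested. Other members kept their direction at 22 h against 1 h under all alternatives: 0.12 to 0.39 for miR-16a, -0.54 to -0.22 for miR-15a, -0.65 to -0.31 for miR-15b, -0.40 to -0.12 for miR-195 and -1.09 to -0.20 for miR-497. For miR-497 at 6 h against 1 h the range was -1.27 to -0.72, with adjusted p from 0.018 to 0.27. The median family share of 9.18% of all counts over the 36 libraries became 21.5% as a share of known miRNAs alone. The settings chosen after seeing the data were library sizes from before the filter and leaving out CBX 22 h replicate 2 or control 0 h replicate 1. Depth limits miR-497 and miR-15b most, since they were under 10 counts in 10 and 3 of 39 libraries.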
